A study of Mus musculus with 40 samples.

Results

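The small nucleolar RNA host genes are transcripts whose introns carry small nucleolar RNAs (snoRNAs). The members Gas5, Snhg1, Snhg3, Snhg4, Snhg5, Snhg6, Snhg7, Snhg8, Snhg11 and Snhg12 were taken by symbol from the deposited expression matrix of mouse skin and mast cells. Each symbol occurred in 1 row, so the members were 10 of 23812 rows.

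SnoRNAs guide the chemical modification and the processing of ribosomal RNA inside the nucleolus: box C/D snoRNAs direct ribose methylation and box H/ACA snoRNAs direct pseudouridylation. Most vertebrate snoRNAs are cut from introns, and the exons of the host are spliced into a transcript that, in these hosts, encodes no long conserved protein. Several hosts start with a 5′ terminal oligopyrimidine (TOP) tract, the C-led run of pyrimidines that also opens the messages of ribosomal proteins, and short reading frames in the spliced transcript expose it to nonsense-mediated decay. The level of a spliced host therefore need not follow the level of the snoRNA made from it.

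The study asked how MrgprD-expressing skin neurons affect mast cells through glutamate, and 40 RNA-seq libraries in 10 groups of 4 were used here. In the ablation arm, ear skin and mast cells sorted from skin came from MrgprdDTR mice and from MrgprdCre controls. Both genotypes carry Cre in the Mrgprd gene (allele Mrgprdtm1.1(cre)And), and the MrgprdDTR mice also carry a diphtheria toxin receptor at the Rosa26 locus (allele Gt(ROSA)26Sortm1(HBEGF)Awai), which Cre switches on in cells with a history of Mrgprd expression. MrgprdDTR mice received diphtheria toxin (DT) for 3 to 4 weeks and topical acetone and olive oil. The series design gives DT to the MrgprdCre mice too, while their sample labels list only the acetone and olive oil, so DT in these controls is unsettled. In the topical arm, ears of C57BL/6J mice received PBS or 50 mM β-alanine (β-ala), a ligand of the MrgprD receptor, once a day for 2 days. In the culture arm, peritoneal-derived mast cells of C57BL/6J mice were kept for 6 h in glutamate-free Tyrode's buffer with vehicle or 4 mM glutamate, or for 48 h with vehicle or 50 uM NS102, a glutamate receptor antagonist. No label gives the age or sex of the mice or says whether the 4 libraries of a group came from separate animals or cultures, so the p-values measure the spread between these libraries, which may be technical.

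The annotated starts of the hosts are shown because the TOP tract is the sequence feature that groups them with ribosomal protein genes. RefSeq windows from 250 bases before to 50 bases after each annotated start (GRCm38.p6) were matched for 8 of the 10 members. Snhg4 and Snhg6 were not matched. In each window a tract was sought as a C followed by at least 4 pyrimidines, with the C within 10 bases of the annotated start, and a TATA-like motif beginning 40 to 20 bases before the start. The motif forms were TATAAA (as found in Snhg8), also TATATA (as found in Gas5) and finally TATTTA (as found in Snhg1). Only the transcript's own strand was searched, and the motif forms were chosen after the windows had been read. The lines below run from 40 bases before the start to 49 bases after it, 5′ to 3′, with the TATA-like motif and the tract in capitals. The Gas5 line is the downstream of the 2 annotated starts, chr1:161035126-161035215 on the plus strand. The Snhg12 line is chr4:132308638-132308727 on the plus strand. The Snhg7 line is chr2:26640195-26640284 on the minus strand, and the Snhg8 line is chr3:123508287-123508376 on the minus strand. The Snhg5 line is chr9:88522848-88522937 on the minus strand. Snhg1, at chr19:8723447-8723536 on the plus strand, is shown as a start with a TATA-like motif and no tract by the rule, and Snhg11, at chr2:158375673-158375762 on the plus strand, as a start with neither.
Gas5: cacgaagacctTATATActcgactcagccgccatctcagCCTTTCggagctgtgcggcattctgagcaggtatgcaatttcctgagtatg
Snhg12: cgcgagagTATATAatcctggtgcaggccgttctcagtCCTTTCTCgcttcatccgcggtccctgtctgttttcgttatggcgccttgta
Snhg7: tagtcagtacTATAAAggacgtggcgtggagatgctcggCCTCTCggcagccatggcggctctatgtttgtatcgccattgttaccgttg
Snhg8: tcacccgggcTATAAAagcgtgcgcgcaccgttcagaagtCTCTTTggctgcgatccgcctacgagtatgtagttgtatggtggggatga
Snhg5: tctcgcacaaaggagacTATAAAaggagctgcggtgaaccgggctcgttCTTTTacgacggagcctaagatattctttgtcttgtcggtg
Snhg1: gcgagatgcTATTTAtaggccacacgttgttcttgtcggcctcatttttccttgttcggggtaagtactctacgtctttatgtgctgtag
Snhg11: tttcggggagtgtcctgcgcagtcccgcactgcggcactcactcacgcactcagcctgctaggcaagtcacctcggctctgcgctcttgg

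A tract was present at a start of 6 of the 8 matched members, Gas5, Snhg3, Snhg5, Snhg7, Snhg8 and Snhg12, which is 75% of them against 34.4% of the 27025 genes with a window. Of 35 ribosomal protein genes with a window, 65.7% had a tract. The TATA-like motif was also present in 6 of the 8 members, Gas5, Snhg1, Snhg5, Snhg7, Snhg8 and Snhg12, against 4.03% of all genes and 5.71% of the ribosomal protein genes. Since the motif forms were chosen from the windows of these hosts, the share of hosts with the TATA-like motif is no comparison with the other sets. TOP starts were already known for several of these hosts, so their tract share is no independent result either. These matches are descriptions of letters near annotated starts, which need not be the starts used in these cells.

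Levels are in FPKM, a fragment count scaled by transcript length and by library size, as deposited, so levels of different genes can be compared per length. The number of reads per library is unknown. Within a group, low values placed the relative depth of libraries 2 to 4 at 0.566 to 1.43 of that of library 1. The deposited values of a library summed to 427797 to 508485 FPKM in skin, 117574 to 197003 in sorted cells and 355726 to 432984 in cultures. The labels were checked against marker lists. The summed keratinocyte markers were 12046 to 14726 FPKM in skin libraries, 0.0860 to 8.32 in sorted cells and at most 0.0735 in cultures. The summed mast cell markers were 25.4 to 299.7 FPKM in skin, 10583 to 30195 in sorted cells and 68967 to 100070 in cultures. The skin samples carry the label epidermal, but fibroblast markers summed to 1710 to 2596 FPKM and skeletal muscle markers to 627 to 4015 FPKM in them, and the design text names the whole ear. Mrgprd itself was at most 0.158 FPKM in any library, too low to check the ablation.

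The hosts were highest in skin, lower in sorted mast cells and lowest in cultured mast cells. Their summed level was 254 ± 5.88 FPKM in MrgprdCre skin, 244 ± 14.5 in MrgprdDTR skin, 263 ± 29.05 in PBS skin and 250 ± 19.9 in β-ala skin (SD, n = 4 each, as for every value with ± below unless stated). The sum was 97.4 ± 27.8 FPKM in sorted MrgprdCre cells and 71.2 ± 25.2 in sorted MrgprdDTR cells. In cultures it was 48.7 ± 3.51 with vehicle at 6 h, 49.7 ± 2.76 with glutamate, 36.7 ± 5.29 with vehicle at 48 h and 23.5 ± 3.27 with NS102. Because the deposited values of sorted cells summed to less, the hosts made up 0.0563% ± 0.0023 of all FPKM in MrgprdCre skin and 0.0517% ± 0.012 in sorted MrgprdCre cells, a difference within the spread of the sorted libraries. They made up 0.0127% ± 0.00082 in the 6 h vehicle cultures.

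**Figure D1:**
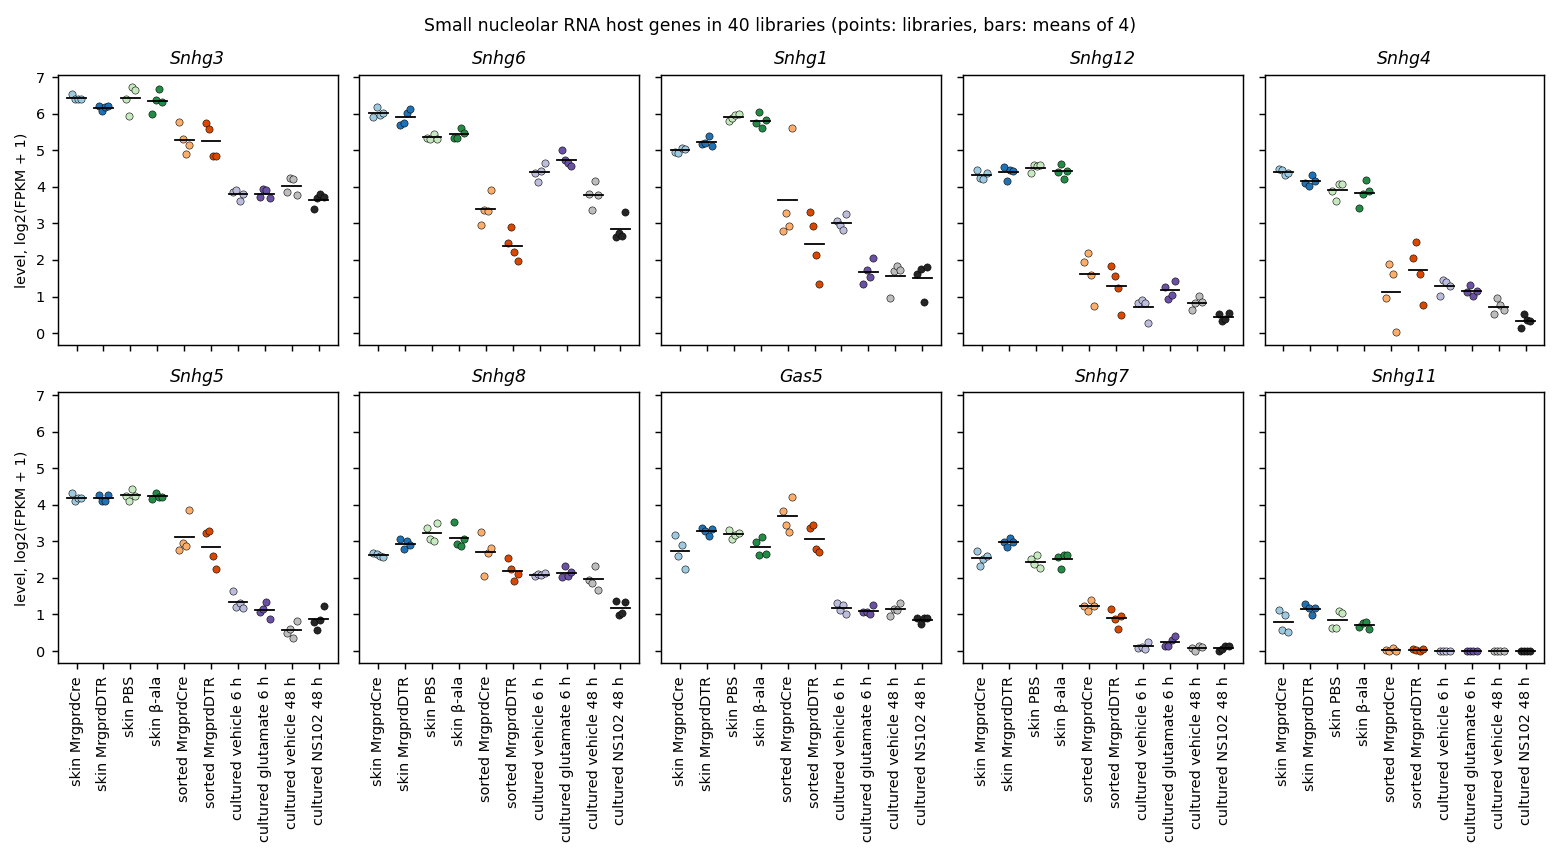
Level of each host gene, log2(FPKM + 1) on the vertical axis, in 10 groups on the horizontal axis; points are libraries and bars are means of 4. Most hosts step down from skin to sorted cells to cultures, while Gas5 is highest in sorted MrgprdCre cells and Snhg6 is lower in sorted cells than in 6 h cultures.

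Among the box C/D hosts, Gas5, a host named for its rise in growth-arrested cells, had its highest mean in sorted MrgprdCre cells. The 4 values there were 13.2, 9.93, 8.55 and 17.5 FPKM, against 3.77 to 9.34 FPKM in the 2 ablation-arm skin groups and 0.659 to 1.51 FPKM in the 16 cultures. Snhg1, the host of a cluster of box C/D snoRNAs on chromosome 19, was highest in the skin of C57BL/6J mice, at 59.2 ± 3.44 FPKM with PBS and 55.4 ± 7.37 with β-ala. It was 30.9 ± 1.46 in MrgprdCre and 36.3 ± 3.16 in MrgprdDTR skin, so every C57BL/6J skin library, the lowest at 47.9 FPKM, lay above every ablation-arm skin library, the highest at 40.8. Strain and handling cannot be told apart in that difference. Snhg5, known as a box C/D host, stood at 16.03 to 20.6 FPKM in all 16 skin libraries, 3.73 to 13.5 in sorted cells and 0.272 to 2.10 in cultures, with no overlap between the 3 kinds of sample. Snhg6, whose locus holds the Snord87 row, was at 64.2 ± 5.35 FPKM in MrgprdCre skin and 4.39 ± 1.53 in sorted MrgprdDTR cells, its highest and lowest group means. In skin Snhg6 split in the other direction from Snhg1, at 50.7 to 71.7 FPKM in the ablation arm and 38.4 to 48.1 in C57BL/6J mice. Strain and handling cannot be told apart there either. It was the only member whose mean was lower in both sorted groups than in the vehicle cultures at either time, although the ranges of sorted MrgprdCre cells (6.74 to 14.1) and 48 h vehicle cultures (9.39 to 16.98) overlapped.

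Among the box H/ACA hosts, Snhg3 was the highest member in every skin and sorted group, from 70.8 ± 3.33 to 87.3 ± 20.5 FPKM in skin and near 38.9 in both sorted groups. It made up 33.7% of the members' sum in MrgprdCre skin and 54.5% in sorted MrgprdDTR cells, and in the 6 h vehicle cultures Snhg6 led with 41.7%. Snhg4, whose locus holds Snora74a, was high in skin alone: 20.4 ± 1.19 FPKM in MrgprdCre skin, 1.44 ± 1.20 in the sorted cells of that genotype and 0.267 ± 0.134 with NS102. Snhg7, with Snora43 and Snora17 in its locus, ranged from 6.88 ± 0.514 FPKM in MrgprdDTR skin to 0.0568 ± 0.0424 in 48 h vehicle cultures, a 121-fold span of group means. Snhg8, with Snora24 in its locus, had the narrowest span of the 9 members above 0 in every group, at 6.597-fold, from 8.52 ± 1.58 in PBS skin to 1.29 ± 0.323 with NS102. Snhg11, known mainly from brain, was 0.446 to 1.42 FPKM in skin, at most 0.0642 in sorted cells and listed at 0 in all 16 cultures. Snhg12, with 3 box H/ACA rows and Snord99 in its locus, was 16.7 to 23.7 FPKM in the 16 skin libraries and 0.417 to 3.58 in sorted cells. In the order of group means, 5 to 8 of the 9 neighbouring pairs of groups overlapped for each member, so the order within skin, within sorted cells and within cultures is mostly not resolved by the spread.

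**Figure D2:**
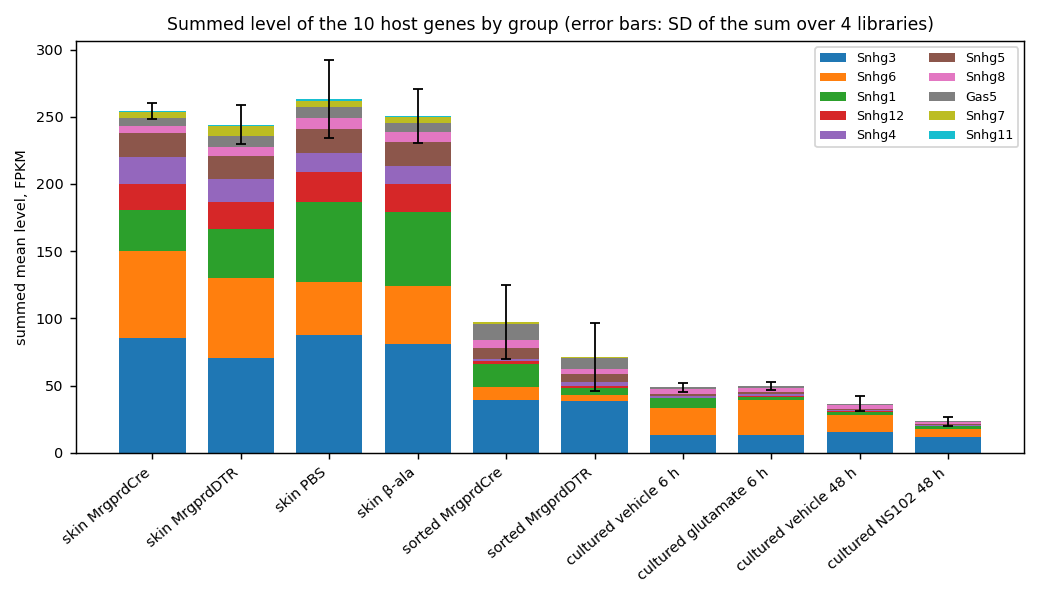
Mean level of each host gene in FPKM, stacked on the vertical axis for the 10 groups on the horizontal axis, with the SD of the sum over 4 libraries. The sum is 244 to 263 FPKM in skin and 23.5 with NS102, Snhg3 is the largest segment in skin and sorted cells, and Snhg6 is the largest in 6 h cultures.

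The snoRNAs themselves were barely measured. Of 11 rows for snoRNAs inside member loci, 6 were listed at 0 in all 40 libraries, among them Snord47 in Gas5 and Snord87 in Snhg6. Snord22, in Snhg1, was above 0 in 9 libraries and reached 172 FPKM in 1 PBS skin library. Of all 114 snoRNA rows in the table, 83 were listed at 0 everywhere, and a 0 here can be a failed estimate, so host and snoRNA levels were not compared. The counting is not stated to use strand, and reads from unspliced introns could not be separated from exons.

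The first comparison asked whether the hosts differ in ear skin after ablation of MrgprD neurons. Of the 10 members, 4 rose and 2 fell in MrgprdDTR against MrgprdCre skin by limma with adjusted p under 0.05, against a background of 13.6% of 12607 genes called (7.38% higher, 6.25% lower). Of the 10 members tested, 3 were higher and 2 lower without overlap between groups, against 11.8% and 9.6% of all genes tested. For the 6 called members the ratios of mean FPKM ranged from 0.824 to 1.497. In bulk skin, fewer cells of a type and less RNA per cell cannot be told apart.

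Snhg7 and Snhg8 rose without overlap. Snhg7 was 5.64, 3.99, 4.69 and 5.04 FPKM in MrgprdCre skin and 6.92, 6.25, 7.51 and 6.84 in MrgprdDTR skin. Every MrgprdDTR library lay above every MrgprdCre library, a ratio of 1.42 and a difference of 0.44 ± 0.085 (SE) on the log2(FPKM + 1) scale, which understates the change of low genes (limma adjusted p = 0.012, and 0.00503 to 0.0346 over 17 alternatives). Snhg8 was 5.44, 5.27, 5.11 and 4.98 FPKM in MrgprdCre skin and 7.32, 5.87, 6.99 and 6.51 in MrgprdDTR skin, again without overlap (log2 difference 0.30 ± 0.063, limma adjusted p = 0.0153). Both are box H/ACA hosts with a tract and a TATA-like motif in the lines shown above. Snhg1 rose from 30.9 ± 1.46 to 36.3 ± 3.16 FPKM without overlap (limma adjusted p = 0.0388), and Gas5 from 5.84 ± 1.84 to 8.74 ± 0.628 with the ranges overlapping, since MrgprdCre library 1 stood at 8.04 FPKM and MrgprdDTR library 3 at 7.89 (limma adjusted p = 0.047).

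The members that fell were 2 other box H/ACA hosts. Snhg3 was 91.2, 84.3, 84.3 and 83.3 FPKM in MrgprdCre skin and 73.2, 66.04, 71.1 and 73.00 in MrgprdDTR skin. All MrgprdDTR values were lower, a log2 difference of -0.27 ± 0.046 (limma adjusted p = 0.00737). Snhg4 was 19.05 to 21.6 FPKM in MrgprdCre skin and 15.2 to 19.04 in MrgprdDTR skin, ranges that only just did not overlap, with a log2 difference of -0.27 ± 0.067 (limma adjusted p = 0.0288). The members that did not pass were Snhg5 (17.3 and 17.2 FPKM in MrgprdCre and MrgprdDTR skin), Snhg6 (64.2 and 59.3), Snhg11 (0.771 and 1.23) and Snhg12 (19.1 and 20.2). Box H/ACA hosts were thus found on both sides. The calls of Gas5, Snhg1 and Snhg4 were lost without the filter on low values (limma adjusted p = 0.103, 0.0698 and 0.0582). They were also lost without MrgprdDTR library 1, MrgprdDTR library 2 or MrgprdCre library 2, each of which left 3 members called. Snhg1 also lost its call without MrgprdDTR library 3 or MrgprdCre library 1 or 4 (limma adjusted p = 0.0686, 0.0773 and 0.0568). Snhg4 also lost its call without MrgprdDTR library 4 or MrgprdCre library 1 (limma adjusted p = 0.0535 and 0.0608). The Gas5 call held on leaving out MrgprdCre library 1 and on leaving out no other library, and Snhg11 passed in that fit (limma adjusted p = 0.0418). With a spread shared by all 40 libraries, 2 members were called, Snhg7 and Snhg11. Median centring turned the split of all called genes from 931 higher and 788 lower to 724 and 1029. Under it 2 members rose and 2 fell, since Gas5 and Snhg1 missed the threshold (limma adjusted p = 0.0524 and 0.0505).

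Among genes that work with the hosts, ribosomal protein genes gave 0 rising and 3 falling of 47 in skin after ablation, with a median difference of -0.12 on the log2 scale against 0.01 for all genes. Under quantile normalization 1 fell and the median was -0.0053, and other TOP messages went from 0 rising and 1 falling of 19 to 4 rising and 0 falling. Rplp0, a protein of the ribosomal stalk, fell from 2397 ± 145 to 2049 ± 121 FPKM (limma adjusted p = 0.0388). Of 17 snoRNP proteins and assembly factors, 2 rose, Ruvbl2, an ATPase of snoRNP assembly, from 10.4 ± 0.683 to 12.002 ± 0.367 FPKM, and Nop58, a core box C/D protein, from 33.2 ± 1.30 to 36.9 ± 1.04 FPKM (limma adjusted p = 0.0350 and 0.0398), and 0 of the 17 were called under median centring. Of 24 genes for RNA polymerase I and ribosome assembly, 2 rose and 0 fell. Markers of other cells moved in the same libraries. Of 11 mast cell markers tested 10 rose, with sums of 82.7 to 107.6 FPKM in MrgprdCre and 222 to 265 in MrgprdDTR skin. Of 7 keratinocyte markers 2 rose, with sums of 12155 to 12636 and 13643 to 14726 FPKM. Of 7 skeletal muscle markers 6 fell, with sums of 1175 to 2742 and 627 to 861 FPKM, and 6 of 6 adipocyte markers fell, with sums of 454 to 559 and 197 to 239 FPKM. No marker of these 4 lists was at 0 in these libraries, and their part in the host differences was not tested.

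**Figure D3:**
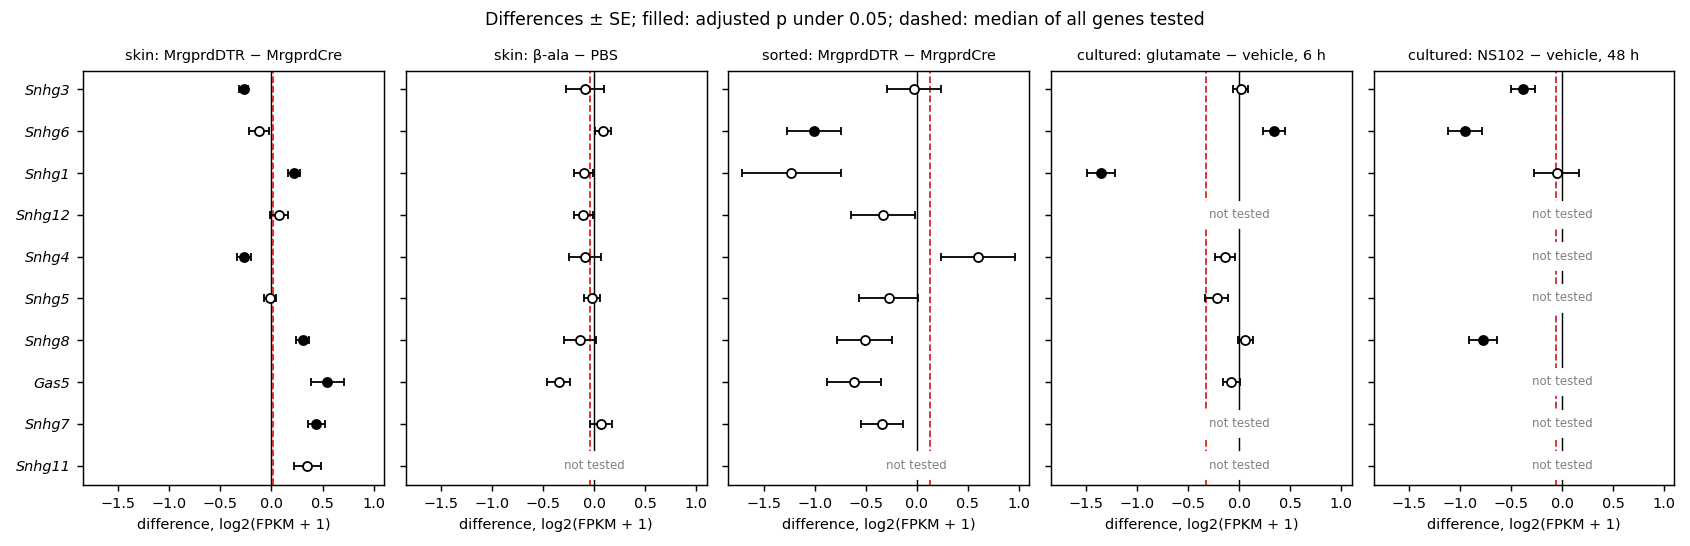
Difference of each host gene in log2(FPKM + 1) on the horizontal axis for 5 treated against control comparisons, as points with SE bars; filled points have a limma adjusted p under 0.05, and the dashed line is the median of all genes tested. Ablated skin has 4 filled points to the right and 2 to the left of 0, β-ala skin has none, and Snhg6 is filled to the left in sorted cells and with NS102 and to the right with glutamate.

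Topical β-ala gave no change of a host that passed the test. Of 9 members tested, 0 were called by limma, against a background of 0.212% of 12709 genes called (0.0157% higher, 0.197% lower). Gas5 was the 1 member with an unadjusted p under 0.05. The largest difference was that of Gas5, which was 8.91, 7.37, 8.09 and 8.35 FPKM with PBS and 6.87, 5.21, 7.74 and 5.28 with β-ala. Of the 4 β-ala libraries 3 lay below all PBS libraries, and the log2 difference was -0.35 ± 0.12 (limma adjusted p = 0.38). The other 8 had log2 differences from -0.14 to 0.09, and Snhg11 was below the filter. Mast cell markers fell in the same libraries: 6 of 11 tested, with sums of 239 to 299.7 FPKM with PBS and 25.4 to 28.005 with β-ala.

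In mast cells sorted from skin, the question was whether the same ablation moves the hosts in the mast cells themselves. Only Snhg6 of 9 members tested passed, and it fell, against 35.8% of 8871 genes called (18.9% higher, 16.9% lower). Snhg6 was 6.74, 9.34, 9.21 and 14.1 FPKM in sorted MrgprdCre cells and 4.51, 6.46, 3.69 and 2.91 in sorted MrgprdDTR cells. The groups did not overlap, a pattern of 16.2% of genes in this direction, and the mean fell 2.24-fold. The log2 difference was -1.01 ± 0.26 (limma adjusted p = 0.00528), or -1.14 relative to the median of all genes, which lay at 0.13. Without MrgprdCre library 4, the highest value, the log2 difference was -0.84 (limma adjusted p = 0.0054).

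Snhg1 and Gas5 did not pass. Snhg1 was 5.92, 8.74, 6.58 and 47.8 FPKM in sorted MrgprdCre cells and 8.88, 6.55, 3.37 and 1.54 in sorted MrgprdDTR cells. The value of MrgprdCre library 4 stood far above the rest, and the other 7 overlapped. The log2 difference was -1.23 ± 0.48 (limma adjusted p = 0.0537), and -0.57 without that library (limma adjusted p = 0.0653). Snhg1 passed without MrgprdCre library 1, 2 or 3 or MrgprdDTR library 1 (limma adjusted p = 0.00986, 0.0287, 0.0337 and 0.0301), in fits that keep library 4. Gas5 was 8.55 to 17.5 and 5.52 to 9.85 FPKM, overlapping ranges, with a log2 difference of -0.62 ± 0.26 (limma adjusted p = 0.0733) that passed under median centring (limma adjusted p = 0.0148). Snhg8 was 5.84 ± 2.23 and 3.66 ± 0.876 FPKM, Snhg7 1.37 ± 0.213 and 0.878 ± 0.286, Snhg5 8.10 ± 3.61 and 6.48 ± 2.49, and Snhg12 2.29 ± 1.25 and 1.58 ± 0.922. Snhg3 was level at 38.9 ± 10.8 and 38.8 ± 13.1 FPKM, and Snhg4 was 1.44 ± 1.20 and 2.62 ± 1.65, the only one of the 9 members tested with a positive difference.

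The ribosomal protein genes, which share the tract with many hosts, differed far more in these cells. Of 47, 45 fell with a median log2 difference of -1.66, and of 19 other TOP messages for translation 13 fell and 1 rose. Rps23, a small-subunit protein, fell from 516 ± 87.1 to 77.9 ± 24.8 FPKM (limma adjusted p = 4.36e-08). Of 14 nonsense-mediated decay factors 1 rose and 0 fell. Without MrgprdCre library 4, 45 ribosomal protein genes fell, and 2 members fell, with Snhg12 added to Snhg6 (limma adjusted p = 0.0218).

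Sorted MrgprdCre library 4 stood apart in Snhg1 and Snhg5 (13.5 against 5.83 to 6.79 FPKM), and had the highest Snhg6 value of its group. Its fibroblast markers summed to 380 FPKM, against 1.64 to 53.5 in the other 3 libraries of its group and 1.98 to 126 in sorted MrgprdDTR cells, while its red blood cell and T and NK cell markers were all listed at 0. Its keratinocyte markers summed to 5.61 FPKM. Marker sums also differed between the groups. Mast cell markers summed to 10583 to 15079 FPKM in sorted MrgprdCre and 18542 to 30195 in sorted MrgprdDTR cells, with 7 of 12 rising and 2 falling, while their median level was 477 and 326 FPKM. Kit, the stem cell factor receptor of mast cells, was 47.6 ± 5.79 and 195.5 ± 47.6 FPKM. Basophil markers were 591 to 907 FPKM in sorted MrgprdCre and 132 to 231 in sorted MrgprdDTR cells, with 4 of 6 falling, and the basophil protease Mcpt8 was 343 ± 88.9 and 2.11 ± 0.531 FPKM. Neutrophil markers were 51.6 to 252 and 0.0719 to 0.301 FPKM, and macrophage and monocyte markers 41.96 to 52.2 and 6.82 to 17.4 FPKM. The neutrophil sum rests on few genes. Of 5 neutrophil markers only 1 passed the filter, and up to 4 of the 5 were at 0 in a sorted MrgprdCre library. The part of these cells in the Snhg6 and ribosomal protein differences was not tested.

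The difference after ablation was itself compared between sorted cells and skin. Of 10 members, 4 passed a limma interaction test against a background of 27.7% of 13153 genes. The change in sorted cells minus the change in skin was -1.16 ± 0.32 for Gas5 (limma adjusted p = 0.0138), -0.89 ± 0.29 for Snhg6 (0.0309), -0.78 ± 0.17 for Snhg7 (0.00284) and -0.82 ± 0.27 for Snhg8 (0.0354), all as adjusted p on the log2 scale. In each of these genes the sorted cells had the more negative difference. Both comparisons use MrgprdDTR and MrgprdCre mice, but marker levels of other cells changed in both, as given above. Of the other members, Snhg4 had the most positive value, 0.87 ± 0.50, which did not pass (limma adjusted p = 0.216). Without the filter on low values, the Snhg6 and Snhg8 differences did not pass (limma adjusted p = 0.0527 and 0.0614). Neither passed without MrgprdDTR sorted library 3 or 4, MrgprdDTR skin library 3 or 4, or MrgprdCre skin library 1, 3 or 4, each taken alone. Snhg8 also did not pass without MrgprdDTR sorted library 2, MrgprdCre sorted library 1, MrgprdDTR skin library 1 or MrgprdCre skin library 2.

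In cultured mast cells, 6 h of glutamate lowered Snhg1 and raised Snhg6. Of 7 members tested, 1 fell and 1 rose by limma, against 79.3% of 8297 genes called (62.4% lower, 16.9% higher). Snhg1 was 7.36, 6.71, 6.06 and 8.50 FPKM with vehicle and 1.54, 2.33, 1.87 and 3.16 with glutamate. The groups were far apart, and 59.1% of genes had groups that did not overlap in this direction. The Snhg1 mean fell 3.22-fold (log2 difference -1.35 ± 0.14, limma adjusted p = 8.37e-07). The median of all genes lay at -0.33, and relative to it Snhg1 was -1.03. Snhg6 was 19.9, 16.4, 20.7 and 24.3 FPKM with vehicle and 31.3, 25.4, 24.2 and 22.7 with glutamate. The ranges overlapped, the mean was 1.27 times that of vehicle, and the log2 difference was 0.34 ± 0.11 (limma adjusted p = 0.0114), or 0.67 relative to the median of all genes. The Snhg6 call was lost without the filter on low values (limma adjusted p = 0.0523) and with a spread shared by all 40 libraries (0.0865).

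The other 5 members tested did not pass. Snhg3 was 12.98 ± 1.16 FPKM with vehicle and 13.1 ± 1.21 with glutamate, Snhg8 3.24 ± 0.108 and 3.43 ± 0.395, and Gas5 1.28 ± 0.219 and 1.15 ± 0.177. Under median centring, 5 members rose (Gas5, Snhg3, Snhg4, Snhg6 and Snhg8) and Snhg1 fell, and the called genes split into 3703 higher and 2611 lower in place of 1403 and 5177. The sign of Gas5 and Snhg4 was thus opposite on the deposited and the centred scale. Without glutamate library 3 Snhg5 passed, and without vehicle library 1 Snhg4 passed, both lower (limma adjusted p = 0.0334 and 0.0236). Snhg12 reached 1 FPKM in too few libraries for a test, but its values of 0.784, 0.871, 0.758 and 0.220 FPKM with vehicle lay below those of 1.42, 0.925, 1.06 and 1.70 with glutamate; 15.2% of tested genes had groups that did not overlap in this direction. Snhg7 was 0.0929 ± 0.0662 and 0.194 ± 0.113 FPKM, and Snhg11 was listed at 0 throughout.

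The gene next to Snhg1 differed in the opposite direction. This gene is Slc3a2, the heavy chain of amino acid transporters such as the cystine and glutamate exchanger. Slc3a2 lies 117 bases from Snhg1 in the deposited coordinates (chr19:8781372-8797859 for Slc3a2 and chr19:8797977-8800816 for Snhg1, mm9). It rose from 105 ± 3.33 to 219 ± 6.25 FPKM with glutamate (limma log2 difference 1.05 ± 0.034, adjusted p = 3.56e-11). It was singled out after its values had been seen, among 9 rows within 5 kb of a member. The rows do not overlap, and whether reads between them were assigned to either was not tested. Ribosomal protein genes also differed from Snhg1: 42 of 47 rose and 0 fell with glutamate, with a median log2 difference of 0.28, and 15 of 19 other TOP messages rose. Under quantile normalization 30 ribosomal protein genes rose and 6 fell. Eef1g, a translation elongation factor, rose from 74.7 ± 2.60 to 134 ± 2.37 FPKM (limma adjusted p = 2.53e-10). Of 10 nonsense-mediated decay factors 7 fell and 0 rose, and Upf3a fell from 7.95 ± 0.701 to 3.75 ± 0.276 FPKM (limma adjusted p = 9.23e-08), but under median centring 3 of the 10 rose and 1 fell, and under quantile normalization 3 rose and 3 fell.

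After 48 h of NS102, hosts that were still well measured were mostly lower. Of 4 members tested, Snhg3, Snhg6 and Snhg8 fell and Snhg1 did not pass, against 70.5% of 8373 genes called (30.8% higher, 39.7% lower). Snhg6 was 13.1, 9.39, 16.98 and 12.8 FPKM with vehicle and 5.24, 5.62, 5.32 and 8.96 with NS102. All NS102 values were lower, and the mean fell 2.08-fold (log2 difference -0.95 ± 0.17, limma adjusted p = 3.08e-04). Snhg8 was 2.87, 2.64, 4.03 and 2.20 FPKM with vehicle and 1.61, 0.967, 1.07 and 1.53 with NS102, also without overlap and 2.27-fold lower (log2 difference -0.77 ± 0.14, limma adjusted p = 2.87e-04). Snhg3 was 13.4, 18.05, 17.5 and 12.8 FPKM with vehicle and 9.42, 11.9, 12.9 and 12.1 with NS102; the ranges overlapped at their edge, and the log2 difference was -0.38 ± 0.12 (limma adjusted p = 0.0116). Snhg1 was 2.03 ± 0.724 and 1.93 ± 0.764 FPKM, with a log2 difference of -0.05 ± 0.22 (limma adjusted p = 0.84).

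Of the 6 members below the filter, 3 were lower with NS102 without overlap. Gas5 was 0.942, 1.23, 1.16 and 1.51 FPKM with vehicle and 0.887, 0.659, 0.864 and 0.863 with NS102. Snhg4 was 0.664 ± 0.224 and 0.267 ± 0.134 FPKM, and Snhg12 was 0.780 ± 0.197 and 0.371 ± 0.104. In these 3 genes all NS102 values lay below all vehicle values, a pattern of 36.9% of the genes that passed the filter, which these 3 did not. Without the filter on low values 6 members fell in all, and the share of all genes that fell in that fit is not given here. Snhg5 was at 0.496 ± 0.213 and 0.850 ± 0.370 FPKM and Snhg7 at 0.0568 ± 0.0424 and 0.0648 ± 0.0525, both with overlap, and Snhg11 was listed at 0 in both groups. Ribosomal protein genes moved as a list: 47 of 47 fell with a median log2 difference of -1.14, and 16 of 19 other TOP messages fell while 3 rose. Rpl32, a large-subunit protein, fell from 1966 ± 117 to 674 ± 75.2 FPKM (limma adjusted p = 2.07e-08). Of 16 snoRNP proteins and assembly factors 9 fell and 1 rose. Nhp2, a core protein of box H/ACA particles, fell from 51.9 ± 1.11 to 27.6 ± 1.86 FPKM (limma adjusted p = 7.49e-08). Of 12 nonsense-mediated decay factors 7 rose and 3 fell, with a median log2 difference of 0.52 against -0.06 for all genes. Magoh, of the exon junction complex, fell from 50.3 ± 3.97 to 29.9 ± 1.97 FPKM (limma adjusted p = 1.51e-06).

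**Figure D4:**
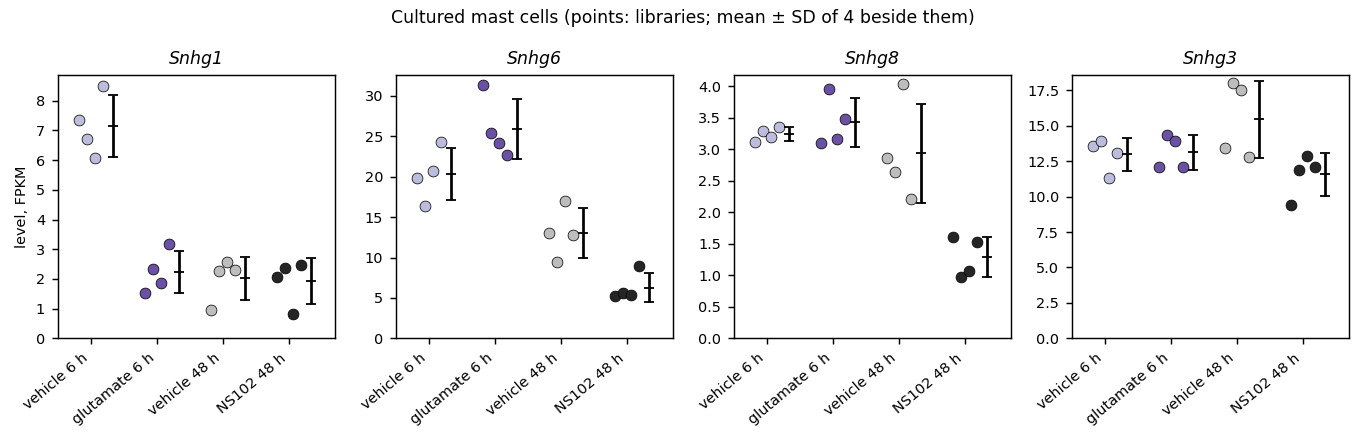
Level in FPKM on the vertical axis of Snhg1, Snhg6, Snhg8 and Snhg3 in the 4 culture groups on the horizontal axis; points are libraries, with mean ± SD of 4 beside them. Snhg1 is high only with vehicle at 6 h (6.06 to 8.50), Snhg6 is highest with glutamate and lowest with NS102, and Snhg8 is lowest with NS102.

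The differences under NS102 and under glutamate were compared in a limma interaction over the 16 cultures, in which the agents, times and media all differ. Of 8 members tested, 6 passed, against 75.9% of 8896 genes. The NS102 difference minus the glutamate difference was 1.30 ± 0.29 for Snhg1 (limma adjusted p = 4.75e-04) and -1.29 ± 0.23 for Snhg6 (4.5e-05), so these 2 hosts stood on opposite sides. It was -0.83 ± 0.16 for Snhg8 (1.62e-04) and -0.84 ± 0.18 for Snhg12 (3.55e-04), both limma adjusted p. Snhg3 passed at -0.40 ± 0.15 (limma adjusted p = 0.0242) and Snhg5 at 0.52 ± 0.19 (0.0208), which did not pass under median centring (0.743). Gas5 and Snhg4 passed under median centring at -0.65 and -0.70 (limma adjusted p = 4.15e-04 and 6.37e-04) and under quantile normalization at -0.67 and -0.57 (2.65e-04 and 0.00336). Snhg3 and Snhg5 also did not pass without the filter on low values (limma adjusted p = 0.0565 and 0.0509), Snhg5 without 6 h vehicle library 1, and Snhg3 without NS102 library 1, 48 h vehicle library 2 or 3, glutamate library 2 or 6 h vehicle library 3.

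The vehicle groups of the 2 culture experiments also differed. The 6 h vehicle libraries are the controls of glutamate and the 48 h vehicle libraries the controls of NS102, so this comparison shares samples with both, and time and medium cannot be told apart in it. Of 7 members tested, 4 fell in the 48 h against the 6 h vehicle cultures and 0 rose, against 71.9% of 8467 genes called (34.2% higher, 37.7% lower). Snhg1 was 0.956, 2.27, 2.56 and 2.31 FPKM at 48 h against 6.06 to 8.50 at 6 h, 3.53-fold lower (log2 difference -1.46 ± 0.16, limma adjusted p = 1.06e-06). Snhg5 was 0.411, 0.526, 0.272 and 0.775 FPKM at 48 h and 2.10, 1.31, 1.47 and 1.28 at 6 h (log2 difference -0.76 ± 0.11, limma adjusted p = 2.71e-05). Snhg4 fell from 1.47 ± 0.317 to 0.664 ± 0.224 FPKM (limma adjusted p = 2.75e-04). Snhg6 fell from 20.3 ± 3.25 to 13.1 ± 3.10 with overlapping ranges (limma adjusted p = 0.00103). Snhg3 was 12.98 ± 1.16 at 6 h and 15.5 ± 2.73 at 48 h and did not pass (limma adjusted p = 0.0617). It passed under median centring (limma adjusted p = 0.0161), without 48 h library 1 or 4 (0.0249 and 0.0181) and with the replicate number as a block (0.0245). Without 48 h library 3, Snhg8 was lower at 48 h (limma adjusted p = 0.0178).

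The proteins that assemble on snoRNAs were on the other side in that comparison. Of 15 snoRNP proteins and assembly factors 13 rose and 1 fell at 48 h, and of 21 genes for RNA polymerase I and ribosome assembly 15 rose and 3 fell. Nhp2 and Nop10, core proteins of box H/ACA particles, rose from 25.3 ± 1.10 to 51.9 ± 1.11 and from 50.4 ± 3.87 to 125.5 ± 8.76 FPKM (limma adjusted p = 1.77e-10 and 2.3e-10). Nop56, a core box C/D protein that is itself encoded by a snoRNA host, rose from 3.77 ± 0.307 to 11.1 ± 0.821 FPKM (limma adjusted p = 8.63e-10). Nop16, a ribosome assembly factor, rose from 1.54 ± 0.315 to 5.93 ± 0.370 FPKM, and Nip7, another assembly factor, from 4.49 ± 0.286 to 9.63 ± 0.425 (limma adjusted p = 4.22e-09 and 1.01e-08). Ribosomal protein genes were divided, 10 higher and 10 lower of 47, a split that scaling moved to 15 and 5 under median centring and to 5 and 22 under quantile normalization. Noncoding hosts outside the members were measured in the same libraries: Snhg9 rose from 7.97 ± 3.08 to 17.3 ± 6.65 FPKM and Snhg10 from 2.79 ± 0.576 to 3.76 ± 0.324 (limma adjusted p = 0.00109 and 0.00793).

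**Figure D5:**
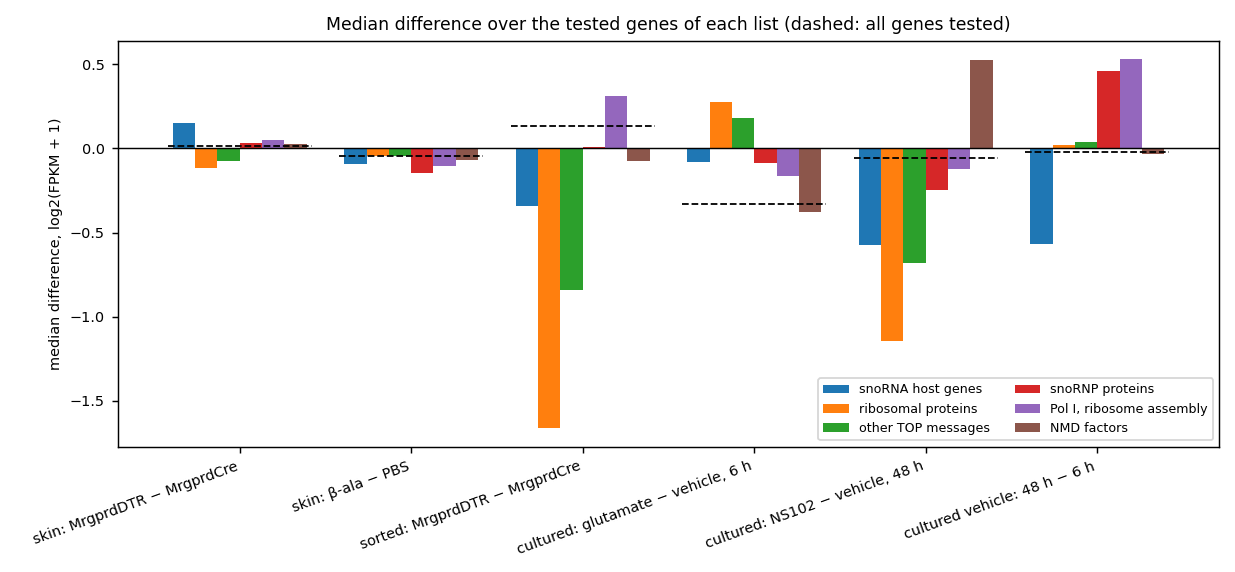
Median difference in log2(FPKM + 1) on the vertical axis over the tested genes of 6 lists, for 6 comparisons on the horizontal axis, with dashed lines at the median of all genes tested. Ribosomal protein genes lie at -1.66 in sorted cells and -1.14 with NS102, below the host genes, and at 48 h against 6 h the host genes lie at -0.57 while snoRNP proteins lie at 0.46.

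Sorted mast cells were compared with whole skin of the same MrgprdCre genotype. Of 9 members tested, Gas5 rose and 7 fell, against 89.8% of 12693 genes called (9.85% higher, 80% lower), and the median of all genes lay at -1.42. Gas5 rose 2.11-fold, from 5.84 ± 1.84 to 12.3 ± 4.00 FPKM, without overlap (log2 difference 0.95 ± 0.26, limma adjusted p = 0.00601), or 2.38 relative to the median. Snhg12 was 8.33-fold lower and Snhg6 6.52-fold lower in sorted cells, and Snhg4 14.1-fold lower (log2 differences -2.70, -2.63 and -3.29, limma adjusted p = 1.34e-05, 8.34e-07 and 1.77e-05). These 3 were also below the median of all genes, with differences to it of -1.28, -1.20 and -1.87 on the log2 scale. Snhg1, Snhg3, Snhg5 and Snhg7 fell in FPKM but lay 0.08 to 0.34 above the median of all genes, and their direction reversed under median centring, where none of these 4 passed. On that scale Gas5 and Snhg8 rose, and Snhg4, Snhg6 and Snhg12 fell. Called genes then split into 5128 higher and 4152 lower, in place of 1250 and 10154. Snhg8 was 5.20 ± 0.199 in skin and 5.84 ± 2.23 FPKM in sorted cells and did not pass (limma adjusted p = 0.735), whereas its log2 difference was 1.63 under both median centring and quantile normalization (limma adjusted p = 1.57e-04 and 1.17e-04). The Snhg1 call (limma adjusted p = 0.0448) was lost on leaving out any 1 of the other 7 libraries, with adjusted p from 0.0768 to 0.123, and held only without sorted MrgprdCre library 4, whose value was 47.8 FPKM.

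Sorted MrgprdCre mast cells were also set beside the 48 h vehicle cultures of peritoneal mast cells. Origin, culture and mouse strain cannot be told apart here, and both groups serve in comparisons above. Of 8 members tested, 7 rose in the sorted cells and 0 fell, against 73.9% of 8740 genes called (21.5% higher, 52.4% lower), while the median of all genes lay at -0.51. Called genes split into 1882 higher and 4576 lower, and into 2507 and 3650 under median centring, where 7 members rose as well. Gas5 was 8.55 to 17.5 FPKM in sorted cells and 0.942 to 1.51 in cultures, 10.2-fold higher (log2 difference 2.55 ± 0.21, limma adjusted p = 1.59e-06). Snhg5 was 16.3-fold higher, at 5.83 to 13.5 against 0.272 to 0.775 FPKM (log2 difference 2.54 ± 0.24, limma adjusted p = 4.31e-06), and 2.30 without MrgprdCre library 4. Snhg7 was 1.13 to 1.65 FPKM in sorted cells and at most 0.0988 in cultures (limma adjusted p = 3.08e-06). Snhg3 was 2.52-fold higher without overlap, and Snhg8 and Snhg12 were 1.99-fold and 2.94-fold higher with overlap (limma adjusted p = 1.61e-04, 0.0177 and 0.0222). The Snhg8 and Snhg12 calls were lost without the filter on low values (limma adjusted p = 0.0581 and 0.087), that of Snhg8 without culture library 4, and that of Snhg12 without MrgprdCre library 1 or 2 or culture library 1. Snhg1 rose from 2.03 ± 0.724 to 17.3 ± 20.4 FPKM (limma adjusted p = 0.00519), a mean that is 7.08 ± 1.47 over the 3 libraries without library 4. Snhg6 alone did not pass, at 9.84 ± 3.06 in sorted cells and 13.1 ± 3.10 in cultures (limma adjusted p = 0.132), but without MrgprdCre library 4 it was lower in sorted cells (log2 difference -0.56, limma adjusted p = 0.014). Ribosomal protein genes were on the other side, with 46 of 47 lower and a median log2 difference of -1.61. Basophil markers were 591 to 907 FPKM in sorted cells and 587 to 637 in cultures by their sum, but their median level was 55.9 and 9.18 FPKM, and Mcpt8 was 343 ± 88.9 and 2.71 ± 0.816. Neutrophil markers summed to 51.6 to 252 and 0.378 to 0.600 FPKM, macrophage and monocyte markers to 41.96 to 52.2 and 20.1 to 39.2, and fibroblast markers to 1.64 to 380 and at most 0.125. Only 1 of 5 neutrophil markers passed the filter here too. The part of these cells in the host and ribosomal protein differences was not tested.

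Over the 10 group means, the average profile of the members was most like Pdlim4 (Pearson r = 0.993), Marveld2 (0.992), Trpt1 (0.991), Crip2 (0.989) and Rnf144b (0.989) among 9579 genes. Pdlim4 went from 18.1 FPKM in MrgprdCre skin to 4.13 in sorted MrgprdCre cells and 0.0271 in 48 h vehicle cultures. The points share the step from skin to sorted cells to cultures, and 3112 of the genes had r above 0.9. Among the members, Snhg7 (0.988) and Snhg12 (0.982) followed the average profile most closely, and Snhg6 (0.765) and Gas5 (0.781) least.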

How the data were processed

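The authors deposited 1 table of gene-level FPKM values for 40 libraries, a unit read from the values and the tools; STAR, Cufflinks and mm9 are named in the submitters' processing notes, without versions, and other settings are not given in the sources used here. FPKM removes depth, and estimates of short or intronic genes are uncertain. Members were found by symbol. Groups came from GEO's labels. Values were tested as log2(FPKM + 1) with limma 3.58.1 (R 4.3.3, mean-variance trend, two-sided, Benjamini-Hochberg over all tested genes), keeping a gene where 4 or more of the libraries compared reached 1 FPKM, in 8 comparisons and 2 interactions, a call being an adjusted p under 0.05. The method was also run on simulated independent normal values drawn from its own fits, with changes planted only in well measured genes. Such a run cannot show faults from scaling, unknown replication or low values. Start positions in the deposited coordinates were raised by 1 base to count from 1. Sequences are from RefSeq, and figures were drawn with Python 3.11.15. Other pseudocounts (0.1 and 5), filters, scalings, a shared spread, a replicate block and leaving out each library were tried.

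All 10 members were described whatever their p. Of the other lists, at most 4 genes per list and comparison, in order of p, were named, and the 5 genes of most like profile; a few genes the rule would name are not reported here. The members and lists were chosen with earlier results of these data known. Per-list scaling checks were added after seeing the data.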

Additional observations from a re-analysis of the deposited data

Results flagged for a closer look

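In 7 of 96 sets of 4 libraries a host value stood apart from the other 3 by Dixon's gap test; chance alone marks about 1 set in 20. The values were Gas5 at 0.659 FPKM in NS102 library 2, Snhg1 at 47.8 and Snhg5 at 13.5 in sorted MrgprdCre library 4, Snhg3 at 91.2 in MrgprdCre skin library 1, Snhg6 at 8.96 in NS102 library 4, Snhg7 at 3.75 in β-ala skin library 2 and Snhg12 at 19.7 in PBS skin library 1. Only sorted MrgprdCre library 4 was marked for more than 1 host.

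By the limma interaction, the difference after ablation differed between sorted cells and skin for 4 of 10 hosts, against 27.7% of 13153 genes. Leaving out each library in turn left 2 to 4 hosts. The Snhg6 and Snhg8 calls were lost without the filter on low values and without several single libraries. The sorted difference minus the skin difference, on the log2 scale, was -1.16 for Gas5, -0.89 for Snhg6, -0.78 for Snhg7 and -0.82 for Snhg8.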

How the results depend on the processing

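Of 1477 alternative values of single hosts, 1343 kept their side of the threshold, and 84 lost and 41 gained a call with the same sign. Among the 1343, 29 values that were uncalled in both fits changed sign. Another 9 changed sign and were called in the main fit, the alternative fit or both. The changes of sign came with scaling: with glutamate, Gas5 was 0.33 and Snhg4 0.27 under median centring and Gas5 0.31 under quantile normalization; in sorted cells against skin, Snhg1, Snhg3, Snhg5 and Snhg7 were 0.21, 0.39, 0.47 and 0.25 under centring, and Snhg5 and Snhg7 were 0.34 and 0.37 under quantile normalization. The number of hosts called, with skin ablation first, was 3 without the filter and 2 with a spread shared by all 40 libraries. All genes called in these fits were 1196 and 511. In sorted cells after ablation, hosts called were 2 with a pseudocount of 5, 3 with a filter of 5 FPKM, 2 under centring, 3 under quantile normalization and 6 with the shared spread. All genes called there were 3202, 1897, 4216, 4456 and 5981, in the same order. Except with the filter of 5 FPKM, 8871 genes were tested. With glutamate the number of hosts called was 6 under centring, 5 under quantile normalization and 1 with the shared spread, with NS102 6 without the filter, and in sorted cells against skin 5 under centring. With a filter of 5 FPKM it was 2 at 48 h against 6 h, 4 in sorted cells against cultures and 3 in the NS102 and glutamate interaction; in the ablation interaction it was 2 without the filter. In the main fits, the share of all genes called was 79.3% with glutamate, 70.5% with NS102 and 89.8% in sorted cells against skin. It was 71.9% at 48 h against 6 h and 73.9% in sorted cells against cultures. In the NS102 and glutamate interaction it was 75.9%, and in the ablation interaction 27.7%. Shares in the alternative fits may differ, so these host counts are no result about the hosts. The cause was not tested.

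Without each library in turn, hosts called ranged from 3 to 5 in skin after ablation, 1 to 3 in sorted cells and 2 to 4 in the ablation interaction, and all genes called in skin after ablation from 779 to 1530. MrgprdDTR skin libraries 1 and 2 and MrgprdCre skin library 2 each left 3 hosts there, and sorted MrgprdCre library 3 left 3 and MrgprdCre libraries 1, 2 and 4 and MrgprdDTR library 1 left 2 in sorted cells. Without MrgprdDTR sorted or skin library 3 or 4, or MrgprdCre skin library 3 or 4, 2 hosts had an interaction. Genes called in ablated skin were 870, 779 and 996 without MrgprdDTR libraries 1, 2 and 3 and 947 without MrgprdCre library 4. All genes called with the shared spread were 511 in ablated skin, 76 with β-ala and 5981 in sorted cells; with a filter of 5 FPKM they were 1897 in sorted cells, 3962 with glutamate, 3757 with NS102, 3888 at 48 h against 6 h and 4219 in sorted cells against cultures, where fewer genes were tested.

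The replicate numbers were not taken as pairs. No comparison had a correlation of deviations over 0.1 in all 4 pairs, and in none did every sample correlate best with its own number. Pairing is not excluded by that rule. In ablated skin 3 of 4 samples correlated best with their own number, and at 48 h against 6 h 3 of 4 pairs were over 0.1. With the replicate block, hosts called were 5 in ablated skin, where Snhg4 did not pass, 5 at 48 h against 6 h, where Snhg3 passed, and as many as without it in the other comparisons; of the ablation interactions Snhg6 lost its call (0.0685, limma adjusted p) and Snhg4 gained one (0.0224). The number of reads is unknown, so hosts near 0 in cultures (Snhg7, Snhg11) cannot be given a limit of detection.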
